A study of Mus musculus with 5 samples.

Results

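T cell receptor segment genes are the pieces from which the antigen receptors of T cells are assembled, and they were followed here through sorted group 3 innate lymphoid cells (ILC3) and CD4 T cells of the mouse. The members are the rows of the count table whose NCBI gene number maps to a mouse symbol of the alpha (Tra), beta (Trb), delta (Trd) or gamma (Trg) locus with the letter v, d, j or c for its segment type, and that held at least 10 counts over the 5 libraries. That gave 129 members among 27179 rows. The table holds 234 T cell receptor segment rows, of which 63 had no count and 42 had 1 to 9 counts. Just outside the minimum stood Trav15d-1-dv6d-1, Trav6d-5 and Traj3 with 9 counts each, and just inside it stood Trav6-7-dv9, Traj21, Trav16, Trav4-2 and Traj56 with 11 counts each. By locus, 71 members belong to Tra (43 V, 27 J and 1 C), 37 to Trb (20 V, 2 D, 13 J and 2 C), 7 to Trd (4 V, 2 J and 1 C) and 14 to Trg (7 V, 3 J and 4 C).

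All libraries came from wild type mice of the strain C57BL/6, 3 in number, and no treatment, age, sex or tissue of the sample is given in the labels. The 3 ILC3 libraries hold cells gated as CD45+, CD3- and CD127+ that carried a green fluorescent reporter of the lineage. The 2 CD4 T libraries hold cells gated by CD45+CD3+CD4+, with no mention of the reporter. CD3 is the signalling partner that every T cell receptor needs at the cell surface, so the ILC3 gate leaves out cells that stain for it. Each receptor chain is made by joining a variable (V) segment to a joining (J) segment, in Trb and Trd with a diversity (D) segment between them, and splicing the joined exon to a constant (C) gene. Conventional CD4 T cells carry an alpha and a beta chain, whereas gamma-delta T cells carry a gamma and a delta chain. Segment loci can also be transcribed in germline form, before or without joining, from promoters beside D, J and C segments. Counts per gene do not tell joined from germline transcripts. In these bulk libraries fewer cells of a type and less RNA per cell cannot be told apart.

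The libraries held 15123715 to 25956023 counts. The members took 0.249%, 0.179% and 0.124% of the counts of ILC3 replicates 1 to 3, and 0.0434% and 0.213% of CD4 T replicates 1 and 2. CD4 T replicate 2 stood apart: 120 of the 129 members had a count there, against 45 in CD4 T replicate 1 and 54 to 67 in the ILC3 libraries. Immunoglobulin segment genes took 6.30% to 29.6% of the counts in the ILC3 libraries and 10.01% to 16.9% in the CD4 T libraries. Cd4 was higher in CD4 T, at 142 and 89.9 CPM against 2.81 to 6.27 CPM in ILC3. Both CD8 chains stood above Cd4 in each CD4 T library, with Cd8a at 245 and 189 CPM and Cd8b1 at 336 and 432 CPM. CPM of a gene are counts per 1000000 on the TMM scale, edgeR's correction of library sizes for composition. Both CD4 T libraries also held transcripts of marker genes of other cell types, which are given with the marker lists further on.

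The sequences of the segments that the results turn on are shown first, because they are what the counted reads overlap. All were read from GENCODE release M21 transcripts of the GRCm38 build, run 5′ to 3′, and were matched to the members through gene numbers and symbols. In the J segments the capitals mark the in-frame match to TTNGNNNNNGGN, which holds the codons of the conserved phenylalanine and the last glycine of the J motif. The search covered the coding strand in the reading frame set by the 3′ end, and 61 of the 70 J segments in the table (87.1%) hold it. Trgj1, Trgj4 and Trbj1-1 held most ILC3 counts among the J segments of their clusters, Trgj2 is a near copy of Trgj1, Trdj1 and Trdj2 are the delta J segments, Trbj2-1 opens the second beta cluster, and Traj18 and Traj27 led the alpha J counts of the CD4 T libraries.
Trgj1: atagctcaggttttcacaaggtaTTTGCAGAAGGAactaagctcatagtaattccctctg
Trgj2: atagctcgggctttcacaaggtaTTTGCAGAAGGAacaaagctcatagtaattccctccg
Trgj4: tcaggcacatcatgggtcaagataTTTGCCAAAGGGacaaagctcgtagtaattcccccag
Trdj1: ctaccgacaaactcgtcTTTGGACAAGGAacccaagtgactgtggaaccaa
Trdj2: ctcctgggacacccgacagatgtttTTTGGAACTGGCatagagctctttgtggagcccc
Trbj1-1: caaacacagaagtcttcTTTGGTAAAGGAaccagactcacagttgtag
Trbj2-1: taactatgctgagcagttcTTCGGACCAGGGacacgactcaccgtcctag
Traj18: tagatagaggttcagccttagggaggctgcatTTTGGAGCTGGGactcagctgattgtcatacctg
Traj27: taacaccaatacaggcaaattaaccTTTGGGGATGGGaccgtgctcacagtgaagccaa

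The beta D segments are the shortest members, of 12 and 14 bases, and are shown because a read counted there must reach into its neighbours.
Trbd1: gggacagggggc
Trbd2: gggactgggggggc

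For V segments the last 45 coding bases are shown, the end that is joined. The capitals mark the codon of the conserved cysteine that closes the V region, found as the last 3 bases of TANNNNTGN with C or T in the last place. This motif lies in the last 45 coding bases of 148 of the 152 V segments in the table (97.4%). Trgv4, Trgv5, Trgv6 and Trdv4 held most gamma and delta V counts of ILC3, Trbv12-2 and Trbv13-2 had the highest ILC3 counts among beta V segments, and Trav3-3 was the alpha V segment that passed the test.
Trgv4: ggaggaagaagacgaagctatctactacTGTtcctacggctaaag
Trgv5: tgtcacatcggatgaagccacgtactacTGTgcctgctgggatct
Trgv6: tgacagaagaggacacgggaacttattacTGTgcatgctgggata
Trdv4: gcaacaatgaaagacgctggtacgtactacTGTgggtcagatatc
Trbv12-2: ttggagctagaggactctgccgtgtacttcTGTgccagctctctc
Trbv13-2: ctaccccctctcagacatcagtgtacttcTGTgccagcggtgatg
Trav3-3: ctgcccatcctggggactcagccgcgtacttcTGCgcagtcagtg

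Near-identical copies limit some members. Trgj1 and Trgj2 share 56 of 60 bases, the coding sequences of Trgc1 and Trgc2 share 97.4% of aligned bases and those of Trbc1 and Trbc2 share 95.6%, so reads could be split between these genes by the authors' counting. Trgv2 and Trgv1 share 95.7%, Trav3-3 and its copy Trav3n-3 share 98.8%, and Trbv13-2 and Trbv13-3 share 90.6%. Trgv5, Trgv6 and Trdv4 had no closer relative than 56.3%, 58.1% and 54.9% among all V segments in the table, so their counts do not carry this limit.

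The receptor counts of the populations came from different loci. Gamma and delta segments together made up most receptor counts of each ILC3 library and few in the CD4 T libraries, and the alpha locus showed the opposite. Trg, on chromosome 13 with members from 19178042 to 19352343, took 32.7%, 41.1% and 41.0% of the receptor counts in ILC3 replicates 1 to 3, against 0.80% and 3.74% in CD4 T. Trd, which lies inside the alpha locus on chromosome 14, took 29.6%, 20.9% and 19.1% in ILC3 against 0.274% and 0.291% in CD4 T. Tra, with members from 52427967 to 54224198 on chromosome 14, took 2.08%, 2.83% and 2.19% in ILC3 against 54.0% and 48.4% in CD4 T. The beta locus on chromosome 6, from 40891296 to 41558371, was closest between the groups, with 35.6%, 35.2% and 37.8% in ILC3 against 44.9% and 47.6% in CD4 T. The groups did not overlap at any of the 4 loci.

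**Figure D1:**
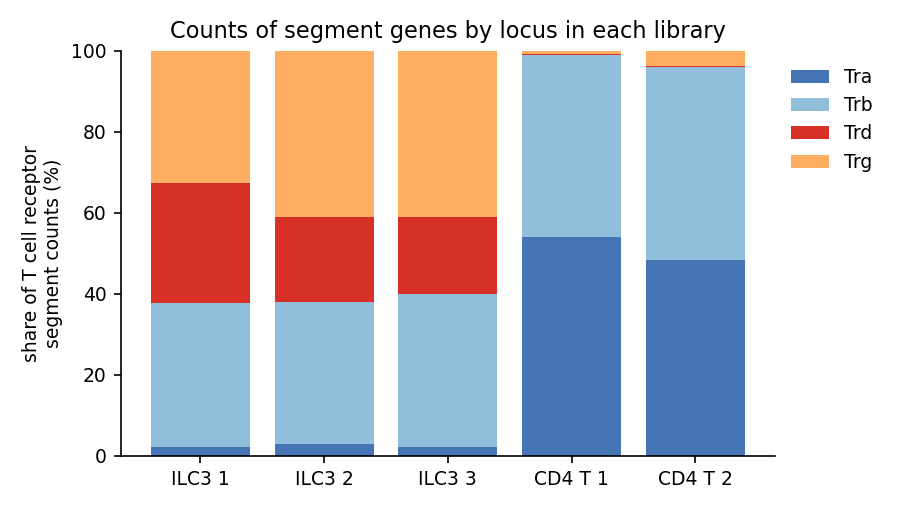
Stacked bars give, for each of the 5 libraries on the horizontal axis, the share in percent of T cell receptor segment counts that fell in Tra, Trb, Trd and Trg. Tra takes 48.4% to 54.0% of the CD4 T bars and 2.08% to 2.83% of the ILC3 bars.

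Over the whole table, edgeR's quasi-likelihood test called 824 of 12747 genes higher in ILC3 (6.46%) and 919 lower (7.21%), at a Benjamini-Hochberg adjusted p under 0.05. Of the 129 members, 62 passed the filter on low counts and were tested. Of these, 7 were called higher in ILC3 (Trgv5, Trdv4, Trgv6, Trdc, Trgj1, Trdj2 and Trbj1-1), 2 were called lower (Trac and Trav3-3), and 53 were not called. The other 67 were not tested, 58 of them in Tra. All ILC3 libraries stood above both CD4 T libraries in 21 tested members and below both in 15, where the shares over all tested genes were 25.5% and 29.6%. The number of calls depended on single libraries. Without 1 ILC3 library, 4 to 6 members were called higher and none lower. Without CD4 T replicate 1 the counts were 10 and 2, and without CD4 T replicate 2 they were 20 and 1. A fit with 1 CD4 T library takes its spread from the ILC3 libraries alone and assumes that the lone library varies like them. With replicate numbers as a block they were 5 and 0.

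Constant genes collect the reads of every transcript of a locus. The delta constant gene Trdc (chr14:54142851-54146108) rose most among them: it held 13153, 5517 and 3298 counts in ILC3 replicates 1 to 3 against 21 and 42 in CD4 T. That is 340 ± 141 CPM (SD, n = 3) against 1.55 ± 1.02 CPM (n = 2), a log2 fold change of 7.78 with an SE of 0.768 (edgeR adjusted p = 0.00343). The alpha constant gene Trac (chr14:54220521-54224198) fell in ILC3, with 1277, 955 and 485 counts against 4222 and 13203. On the TMM scale that is 45.1 ± 16.4 CPM (SD, n = 3) against 440 ± 387 CPM (n = 2), a log2 fold change of -3.29 with an SE of 0.640 (edgeR adjusted p = 0.0235). The call for Trac was lost when any 1 of the ILC3 libraries was left out (adjusted p = 0.0639 to 0.0813) and with the replicate block (adjusted p = 0.0784). For every count of Trac there were 10.3, 5.78 and 6.80 counts of Trdc in the ILC3 libraries and 0.00497 and 0.00318 in the CD4 T libraries. These ratios are of counts and are not per length, so they are compared only between libraries.

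The gamma constant genes Trgc1 (chr13:19214103-19216618) and Trgc4 (chr13:19344558-19352343) were above both CD4 T libraries in all ILC3 libraries, but did not pass the test. Trgc1 held 10030, 7273 and 5102 counts in ILC3 against 7 and 433 in CD4 T (log2 fold change 4.99, SE 1.58, edgeR adjusted p = 0.0774). Trgc4 held 4789, 3604 and 2849 counts and 3 and 220 (log2 fold change 4.99, SE 1.54, edgeR adjusted p = 0.0721). CD4 T replicate 2 held the higher CD4 T count of each. Both genes were called higher when either CD4 T library was left out, in fits whose spread came from the ILC3 libraries alone. Trgc2, on the reverse strand, overlapped between the groups with 911, 593 and 136 counts against 11 and 273 (log2 fold change 1.79, SE 1.32, edgeR adjusted p = 0.392). Trgc3 held 15, 25 and 0 counts in ILC3 and none in CD4 T.

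Neither beta constant gene passed the test. Trbc1 (chr6:41538219-41539665) held 9968, 5283 and 4111 counts in ILC3 against 891 and 4375 in CD4 T (log2 fold change 1.20, SE 0.736, edgeR adjusted p = 0.303). Trbc2 (chr6:41546730-41548181) held 8652, 5679 and 3899 against 2442 and 6222 counts (log2 fold change 0.47, SE 0.539, edgeR adjusted p = 0.591). On the TMM scale the groups overlapped for Trbc2 and not for Trbc1. Both values hung on single CD4 T libraries. Without CD4 T replicate 2 both genes were called higher in ILC3, with log2 fold changes of 3.16 for Trbc1 (edgeR adjusted p = 0.00847) and 1.65 for Trbc2 (edgeR adjusted p = 0.0355). Without CD4 T replicate 1 the values were 0.41 and -0.16, neither called, and scaling by library size alone gave -0.015 for Trbc2. Per kilobase of GENCODE exons, the unscaled CPM of the constant genes in ILC3 was 381 for Trbc2, 370 for Trbc1, 352 for Trgc1, 167 for Trgc4 and 42.0 for Trac. Trdc is left out here because its GENCODE exons run past its RefSeq span. In CD4 T it was 579 for Trac, 385 for Trbc2, 223 for Trbc1, 15.7 for Trgc1 and 7.46 for Trgc4. The ILC3 libraries held 1.15, 0.930 and 1.05 counts of Trbc1 per count of Trbc2, and the CD4 T libraries 0.365 and 0.703.

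**Figure D2:**
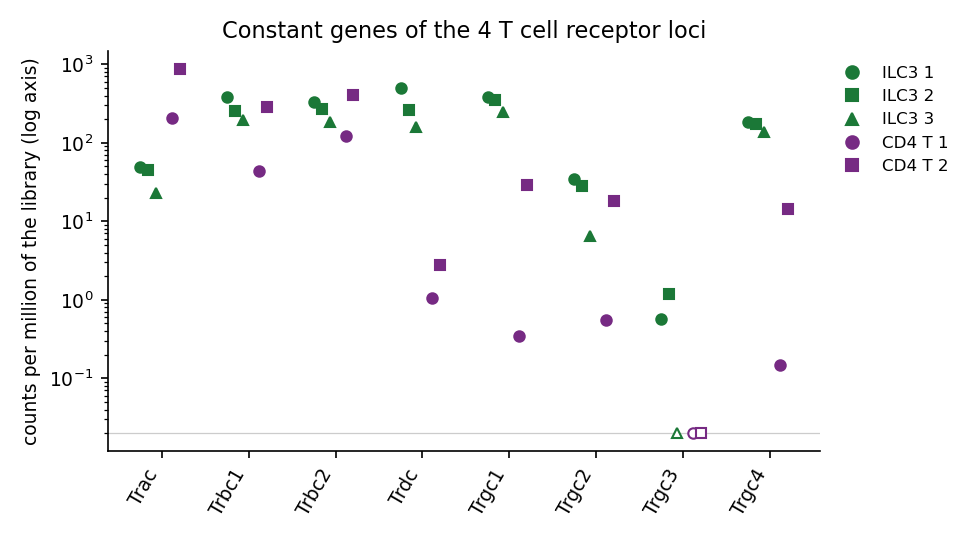
Each symbol is the level of one constant gene in one library, in CPM of the unscaled library on a log axis, with ILC3 in green and CD4 T in purple and open symbols on the grey line for genes with no count. Trdc lies above 100 CPM in every ILC3 library and below 3 CPM in both CD4 T libraries, while the groups overlap for Trbc1 and Trbc2.

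Among gamma V segments, 3 neighbours upstream of Trgj1 and Trgc1 held most counts in ILC3. Trgv5 (chr13:19192278-19192725) held 1842, 954 and 1019 counts in ILC3 and none in either CD4 T library, at least 661-fold higher (edgeR adjusted p = 0.000947). Trgv6 (chr13:19190368-19190929) held 1326, 1180 and 505 counts and none in CD4 T, at least 522-fold higher (edgeR adjusted p = 0.00326). Trgv5 and Trgv6 are known as the gamma V segments of the first gamma-delta T cells made in the fetal thymus, which pair them with Trdv4. Trgv4 (chr13:19184981-19185506) held 824, 677 and 473 counts in ILC3 against 0 and 40 in CD4 T, and did not pass the test (log2 fold change 4.98, SE 1.48, edgeR adjusted p = 0.0668). All ILC3 libraries were above both CD4 T libraries for each of these 3 segments.

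Set against their constant gene, these 3 V segments were steady across ILC3. Trgv4, Trgv5 and Trgv6 together held 39.8, 38.6 and 39.1 counts per 100 counts of Trgc1 in ILC3 replicates 1 to 3. CD4 T replicate 2 held 9.24 per 100, and replicate 1 had only 7 counts of Trgc1 and none of these V segments. The share of each V segment varied more: Trgv5 took 41.3%, 30.0% and 49.0% of gamma V counts in ILC3, and Trgv6 took 29.7%, 37.1% and 24.3%. The cluster of Trgv1 and Trgc4 differed from this. Trgv1 held 30, 48 and 22 counts in ILC3, or 0.626, 1.33 and 0.772 counts per 100 counts of Trgc4. In CD4 T replicate 2 the 22 counts of Trgv1 were 10 per 100 counts of Trgc4, and CD4 T replicate 1 had 3 counts of Trgc4 and none of Trgv1. Trgv2 was the only gamma V segment counted in both CD4 T libraries, with 48 and 177 counts against 403, 294 and 59 in ILC3 (log2 fold change 1.10, SE 0.981, edgeR adjusted p = 0.484). Trgv3 and Trgv7, with 44 and 17 counts in all, had none in CD4 T.

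Of the gamma J segments, Trgj1 (chr13:19210343-19210402) rose in ILC3, with 585, 532 and 264 counts against 1 and 8 (23.5 ± 9.54 CPM, SD, n = 3, against 0.236 ± 0.278 CPM, n = 2; log2 fold change 6.68, SE 1.07, edgeR adjusted p = 0.0135). Without ILC3 replicate 2 its adjusted p was 0.0510. Trgj4 held 311, 224 and 214 counts against 0 and 17 and did not pass the test (log2 fold change 4.81, SE 1.52, edgeR adjusted p = 0.0775). Counts of Trgj4 per 100 counts of Trgc4 were 6.49, 6.22 and 7.51 in ILC3 and 7.73 in CD4 T replicate 2. Trgj2, the near copy of Trgj1 shown above, held 59, 22 and 6 counts in ILC3 against 0 and 18 in CD4 T.

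In the delta locus a single V segment dominated ILC3. Trdv4 (chr14:54075004-54075515) held 5448, 1937 and 1489 counts in ILC3 against 3 and 5 in CD4 T, which is 95.4%, 88.4% and 93.9% of the delta V counts of the ILC3 libraries. Its level was 136 ± 55.6 CPM (SD, n = 3) against 0.195 ± 0.107 CPM (n = 2), a log2 fold change of 9.45 with an SE of 0.703 (edgeR adjusted p = 0.00155). Per 100 counts of Trdc there were 41.4, 35.1 and 45.1 counts of Trdv4 in ILC3. The J segment Trdj2 (chr14:54136779-54136837) held 227, 99 and 60 counts in ILC3 and none in CD4 T, at least 66.9-fold higher (edgeR adjusted p = 0.0195). Its call was lost when ILC3 replicate 1, ILC3 replicate 2 or CD4 T replicate 1 was left out and with the replicate block (adjusted p = 0.0521 to 0.0828). Trdj1 (chr14:54123138-54123188) held 39, 38 and 9 counts against 0 and 1, a ratio of 44.7 with an exact 95% interval of 7.82 to 1787, and was not called (edgeR adjusted p = 0.103).

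The other delta V segments were low. Trdv5 held 233, 189 and 54 counts in ILC3 against 0 and 5 in CD4 T (log2 fold change 5.88, SE 1.63, edgeR adjusted p = 0.0581). It lies on the reverse strand inside the GENCODE exons of Trdc, but outside the RefSeq span of Trdc. The annotation and strand setting of the counting are not stated, so whether reads of Trdc were counted for Trdv5 cannot be told. Trdv2-2 held 29, 65 and 30 counts against 0 and 14, and Trdv1 held 0, 0 and 13 against 0 and 27. Trdv1 was the leading delta V segment of CD4 T replicate 2, where Trdv4 took 9.80% of the 51 delta V counts. No delta D segment reached the minimum for a member.

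**Figure D3:**
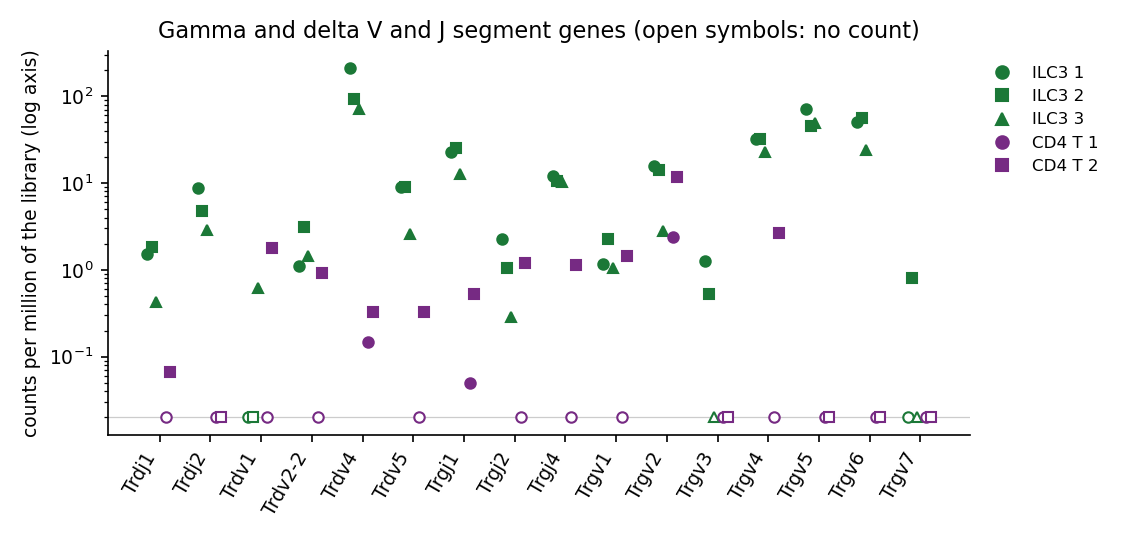
Each symbol is the level of one gamma or delta V or J segment in one library, in CPM of the unscaled library on a log axis, with ILC3 in green, CD4 T in purple and open symbols on the grey line for segments with no count. Trgv5, Trgv6 and Trdj2 have only open purple symbols, and Trdv4 separates the groups most among segments counted in both.

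The make-up of beta segments differed between the groups. In ILC3, V segments made up 16.4% (exact 95% interval 15.4% to 17.6%), 15.7% (14.2% to 17.3%) and 14.6% (13.0% to 16.3%) of the counts in V, D and J members of Trb. In CD4 T they made up 89.4% (86.7% to 91.8%) and 84.4% (83.3% to 85.4%). These intervals cover counting error only. Per 100 counts of the constant genes, ILC3 held 19.6, 17.4 and 19.2 counts of D and J segments and CD4 T held 1.89 and 7.01. For V segments the order was reversed, with 3.87, 3.24 and 3.27 per 100 in ILC3 against 16.0 and 37.8 in CD4 T. No library of one group fell within the range of the other in any of these 3 measures. In Trg the V share of V and J counts differed less, at 82.4%, 80.3% and 81.1% in ILC3, 98.0% (89.1% to 99.9%) in CD4 T replicate 1 and 84.8% (80.0% to 88.7%) in CD4 T replicate 2. In Trd the V share of V and J counts was 95.5%, 94.1% and 95.8% in ILC3.

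Trbj1-1 (chr6:41533864-41533911), the first J segment of the first beta cluster, was the beta member called higher in ILC3. It held 1408, 576 and 532 counts in ILC3 against 13 and 62 in CD4 T. Its level was 39.5 ± 10.1 CPM (SD, n = 3) against 1.93 ± 2.01 CPM (n = 2), a log2 fold change of 4.37 with an SE of 0.862 (edgeR adjusted p = 0.0245). The call was lost without any 1 of the ILC3 libraries and with the replicate block (adjusted p = 0.0507 to 0.0743). Trbj2-1 (chr6:41542754-41542803), the first J segment of the second cluster, held 655, 453 and 347 counts against 26 and 111 and was not called (log2 fold change 2.79, SE 0.804, edgeR adjusted p = 0.0624). Trbj1-2 held 445, 244 and 173 counts against 6 and 79 (log2 fold change 2.63, SE 1.15, edgeR adjusted p = 0.164). Of the 12 beta J segments tested, 6 were above both CD4 T libraries in all ILC3 libraries and none was below both. Over all genes tested these shares were 25.5% and 29.6%. The 12 segments share a locus and the same libraries, so they do not count as separate observations.

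The J segments were used in different proportions. Trbj1-1 took 41.5%, 31.6% and 36.8% of beta J counts in ILC3 against 20.6% and 9.58% in CD4 T. Trbj2-7 took 5.02%, 4.45% and 4.91% in ILC3 against 12.7% and 14.99% in CD4 T. Taken by cluster, there were 2.39, 1.73 and 1.89 counts in first-cluster J segments per count in second-cluster J segments in ILC3, against 0.703 and 0.721 in CD4 T. CD4 T replicate 1 rests on 63 beta J counts and replicate 2 on 647. Trbd1 (chr6:41533201-41533212), upstream of the first cluster, held 230, 71 and 67 counts in ILC3 against 0 and 64 in CD4 T (log2 fold change 1.69, SE 1.73, edgeR adjusted p = 0.547). Trbd2 (chr6:41542163-41542176) held 39, 14 and 26 against 0 and 32 (log2 fold change 0.56, SE 1.89, edgeR adjusted p = 0.870), and its sign turned without CD4 T replicate 1.

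**Figure D4:**
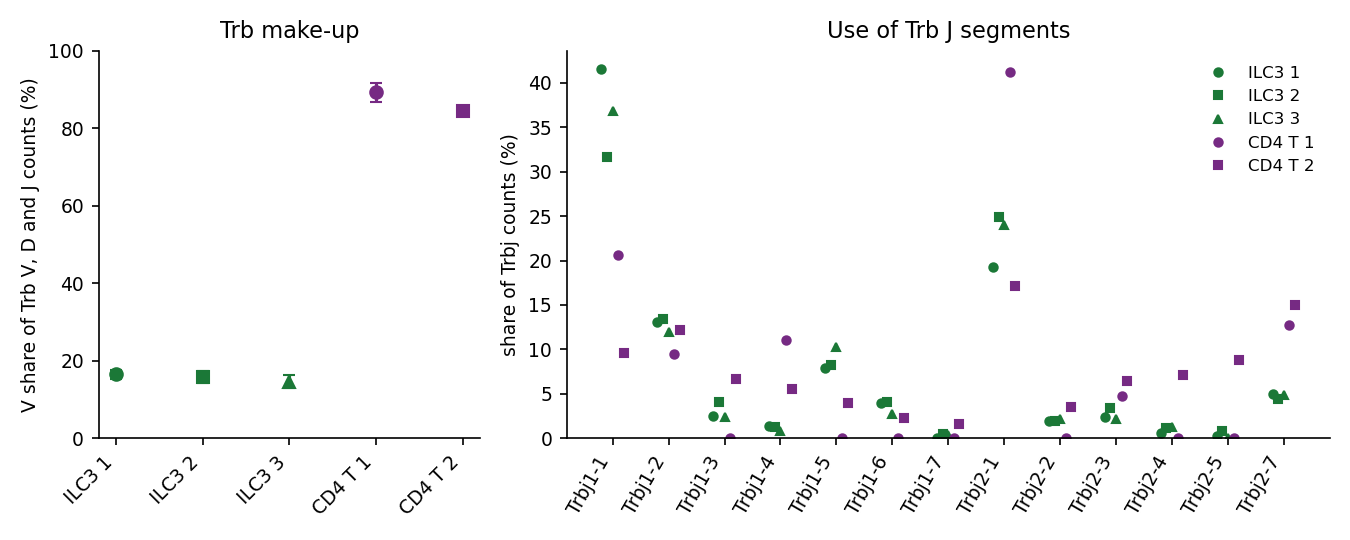
The left panel gives, for each library, the V share in percent of Trb V, D and J counts with its exact 95% interval, and the right panel the share in percent of beta J counts that each J segment took, with ILC3 in green and CD4 T in purple. The ILC3 libraries lie at 14.6% to 16.4% in the left panel and the CD4 T libraries at 84.4% and 89.4%.

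None of the 13 beta V segments tested was called. Trbv12-2 (chr6:41118864-41119364) led in all ILC3 libraries with 179, 104 and 79 counts, against 106 and 516 in CD4 T (log2 fold change -1.44, SE 0.807, edgeR adjusted p = 0.262). Trbv13-2 (chr6:41121396-41121832) held 99, 42 and 68 against 30 and 699 (log2 fold change -2.51, SE 1.17, edgeR adjusted p = 0.187). Trbv3 held 15, 26 and 0 against 0 and 476, so its CD4 T counts came from 1 library. Without CD4 T replicate 2 the log2 fold changes of Trbv12-2 and Trbv13-2 turned to 0.51 and 1.53, neither called, and that of Trbv3 turned positive with no CD4 T count left. Trbv20 held 120, 23 and 0 against 97 and 96. Of 24 beta V rows, 13, 12 and 9 had a count in ILC3 against 10 and 19 in CD4 T. After thinning every library to 262 beta V counts the expected numbers were 12.7, 11.9 and 9 in ILC3 against 9.99 and 18.1 in CD4 T. CD4 T replicate 2 was alone above the ILC3 libraries, and replicate 1 lay within their range.

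Alpha V and J segments were low in ILC3. The alpha V members together held 37, 95 and 63 counts in ILC3 replicates 1 to 3 against 233 and 1861 in CD4 T, and the alpha J members held 27, 14 and 22 against 268 and 546. Of the 71 alpha members 9, 18 and 11 had a count in the ILC3 libraries, 20 in CD4 T replicate 1 and 69 in CD4 T replicate 2. Trav3-3 (chr14:53666005-53666506) held no count in ILC3 against 70 and 97 in CD4 T, at least 107-fold lower in ILC3 (edgeR adjusted p = 0.0414). Its call was lost with the replicate block (adjusted p = 0.168) and whenever 1 library was left out (adjusted p = 0.0659 to 0.140), and its copy Trav3n-3 differs at few bases. Among J segments, Traj18 (chr14:54200777-54200842) held 0, 0 and 5 counts in ILC3 against 132 and 72 in CD4 T (log2 fold change -5.51, SE 1.91, edgeR adjusted p = 0.0972), and Traj27 (chr14:54192303-54192361) held none in ILC3 against 38 and 79 in CD4 T, at least 75.0-fold lower (edgeR adjusted p = 0.0522). Traj2 had no count in ILC3 and 30 and 12 in CD4 T, at least 26.9-fold lower (edgeR adjusted p = 0.0682). The alpha J members with most ILC3 counts were low in both groups: Traj26 held 13, 0 and 0 against 0 and 6, Traj58 held 10, 2 and 0 against 0 and 10, and Traj11 held 0, 0 and 6 against 0 and 17. Traj18 is known as the J segment of the invariant alpha chain of natural killer T cells. It took 49.3% of alpha J counts in CD4 T replicate 1 and 13.2% in replicate 2. Which cells gave these counts was not tested.

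The CD4 T libraries differed from each other in alpha V segments. Of 116 alpha V rows, 10 had a count in CD4 T replicate 1 and 63 in replicate 2, against 5, 14 and 6 in ILC3. Thinned to 40 alpha V counts, the expected numbers were 8.13 and 19.9 in CD4 T and 5, 10.9 and 5.87 in ILC3, so replicate 1 lay within the ILC3 range. Trav17 held 303 counts in CD4 T replicate 2 and none in any other library, and Trav21-dv12 held 294 there and 1 in CD4 T replicate 1. Both were left untested by the filter, as were 35 of the 43 alpha V members. The alpha V counts of ILC3 lay largely in some of the segments whose names carry a delta V number as well, which can join either alpha or delta J segments. The 7 members with such names, grouped after their values were seen, held 31 of 37, 49 of 95 and 37 of 63 alpha V counts in ILC3 (83.8%, 51.6% and 58.7%), against 19 of 233 and 380 of 1861 in CD4 T (8.15% and 20.4%). All of their ILC3 counts came from Trav13-4-dv7 (8, 11 and 5 counts), Trav15-1-dv6-1 and Trav15-2-dv6-2. Trav21-dv12, Trav14d-3-dv8, Trav16d-dv11 and Trav6-7-dv9 had no count in ILC3 and were counted in CD4 T. Trav15-1-dv6-1 held 18, 14 and 32 counts in ILC3 against 0 and 13 in CD4 T (log2 fold change 1.69, SE 1.90, edgeR adjusted p = 0.587), and was first among alpha V members in ILC3 replicates 1 and 3. Trav15-2-dv6-2, first in ILC3 replicate 2, held 5, 24 and 0 counts and none in CD4 T, and was not tested. Trav1, which carries no delta number, held 0, 20 and 18 counts in ILC3 and none in CD4 T, at least 6.59-fold higher, and was not called (edgeR adjusted p = 0.169).

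**Figure D5:**
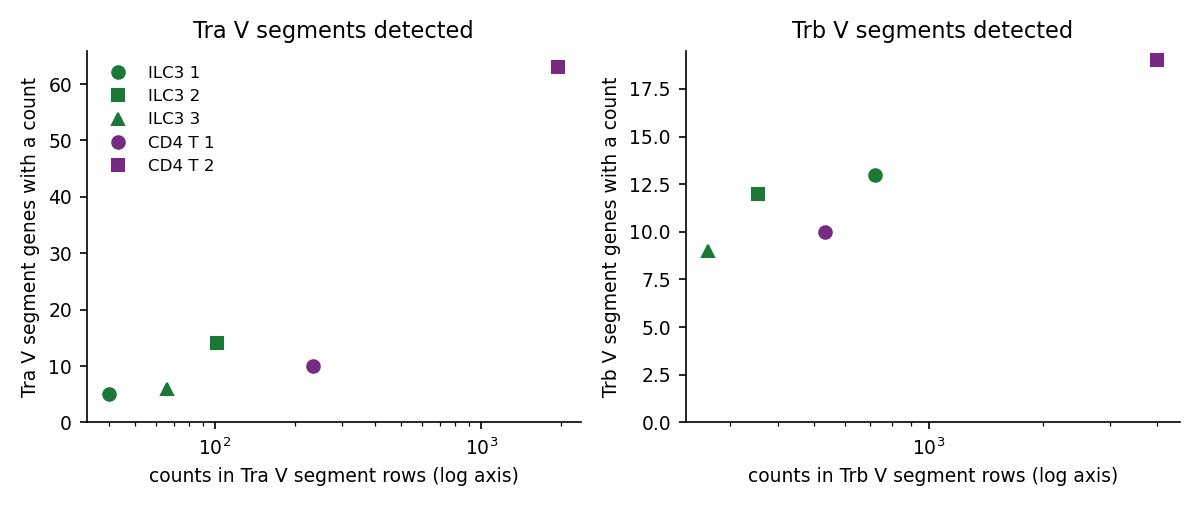
Each symbol is one library, with its counts in alpha V rows (left) or beta V rows (right) on a log horizontal axis and the number of V segment genes with a count on the vertical axis, ILC3 in green and CD4 T in purple. CD4 T replicate 2 lies apart with 63 alpha and 19 beta V segments, and CD4 T replicate 1 lies near the ILC3 libraries.

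Transcripts of the CD3 chains, which carry the receptor to the surface, and of coreceptors and associated molecules were read beside the segments. Of 12 genes of the CD3 chains, coreceptors and associated molecules, none was higher in ILC3 and 7 were lower by edgeR. Their median log2 fold change was -4.85 against -0.10 over all genes tested, where 6.46% were called higher and 7.21% lower. Cd8a, Cd5, Cd6 and Cd4 were called with the smallest p. Cd6, a receptor of mature T cells, had no count in ILC3 and 36.6 and 56.8 CPM in CD4 T. Transcripts of CD3 chains were present in the CD3- gate, though Cd247 was near 0 in ILC3 replicate 3. Cd3g stood at 361, 470 and 160 CPM in ILC3 against 279 and 1308 in CD4 T (log2 fold change -1.26, SE 0.696, edgeR adjusted p = 0.254). Cd3e stood at 65.2, 69.8 and 20.5 CPM against 54.8 and 200 (log2 fold change -1.30, not called). Cd247 stood at 34.7, 19.8 and 0.233 CPM against 47.6 and 65.0 (log2 fold change -1.62, not called). Of the CD3 chains Cd3d fell, at 110, 146 and 63.7 CPM against 460 and 778 (log2 fold change -2.54, SE 0.435, edgeR adjusted p = 0.0162).

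Of the 16 genes of the recombination machinery 14 were tested, with 1 higher and 2 lower in ILC3 and a median log2 fold change of 0.08. For this list and the next, the shares over all genes tested were 6.46% higher and 7.21% lower. Rag1 and Rag2, the recombinase that cuts the segments, were not tested: neither had a count in ILC3, Rag2 had none in any library, and Rag1 stood at 0.0396 and 0.108 CPM in CD4 T. Dntt, the terminal transferase that adds bases at the joints, fell, with no count in ILC3 and 64.7 and 39.9 CPM in CD4 T (edgeR adjusted p = 0.00351). Dclre1c, the nuclease Artemis that opens the hairpin ends, fell with a log2 fold change of -6.59 with an SE of 0.777 (edgeR adjusted p = 0.00593), and Xrcc4, a ligation factor, rose by 1.86 (SE 0.477, edgeR adjusted p = 0.0487). Of 20 transcription factors known to bind or open receptor loci, 3 were higher and 4 lower, with a median log2 fold change of -1.01. Id2 and Tcf7 were among the higher, with log2 fold changes of 2.06 (SE 0.401, edgeR adjusted p = 0.0235) and 2.86 (SE 0.720, edgeR adjusted p = 0.0470). Tcf4, Id3, Bcl11b and Ikzf1 were lower, with log2 fold changes of -3.42, -2.97, -2.77 and -2.05. Some of these genes are also on marker lists given below: Tcf4 on the plasmacytoid dendritic cell list, Bcl11b on the alpha-beta list and Id2 on the ILC3 list.

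Markers of other cells differed between the groups in some lists only. The shares over all genes tested were 6.46% higher and 7.21% lower. These lists share genes with the list of CD3 chains and coreceptors, so their counts are not separate. Cd8a and Cd8b1 are also CD8 markers. Cd3e, Cd4, Cd5, Cd6 and Cd28 are also alpha-beta markers, and Ptcra is also a plasmacytoid dendritic cell marker. Summed levels of the CD8, plasmacytoid dendritic cell and ILC3 lists did not overlap between the groups. Those of the gamma-delta, alpha-beta and B and plasma cell lists did. The gamma-delta T cell list holds 10 names, of which 8 matched a gene in the table and Scart1 and Scart2 did not. The median log2 fold change was 2.21 over 7 tested. Their summed level was 190 to 205 CPM in ILC3 and 194 and 318 CPM in CD4 T. Blk and Zbtb16 rose and Cd27 fell in ILC3. Most of the sum came from Maf, at 89.6, 103 and 92.2 CPM in ILC3 against 138 and 158, and Il17a, at 46.7, 32.6 and 24.0 CPM against 27.8 and 94.8, neither called (log2 fold changes -0.65 and -0.83). Cd163l1 stood at 24.0, 39.1 and 23.5 CPM against 0.0396 and 1.95 (edgeR adjusted p = 0.0535). 5830411N06Rik stood at 4.86, 5.76 and 6.77 CPM against 0 and 0.973 (log2 fold change 3.58, not called). Sox13 was near 0 at 0.576, 0 and 0.117 CPM in ILC3, had no count in CD4 T and was not tested. Of 12 conventional alpha-beta T cell markers none rose and 6 fell in ILC3 (median -3.07), with summed levels of 1181 to 1687 CPM against 809 and 1993, led by Icos at 717 to 1092 CPM against 158 and 660. Of 8 CD8 T cell markers 4 fell in ILC3 (median -6.93 over 7 tested), with summed levels of 215 to 492 CPM in ILC3 against 3005 and 4865 in CD4 T, where Cd8b1 stood at 336 and 432 CPM and Gzma at 2062 and 3195 CPM. Nkg7 led the list in ILC3, at 196 to 462 CPM. Of 12 plasmacytoid dendritic cell markers 10 fell in ILC3 (median -4.27), and the sums were 270 to 682 CPM against 5265 and 4332, with Siglech at 744 and 813 CPM and Ly6d at 1727 and 1805 CPM in CD4 T. Of 14 B and plasma cell markers 1 fell, Ighm, and Igkc was highest, at 29805 to 176352 CPM in ILC3 against 43734 and 35462 (median 0.77 over 13 tested), and Pax5 had no count in any library. Their summed level was 54269 to 327060 CPM in ILC3 against 131564 and 67828 in CD4 T. Of 13 ILC3 markers 12 rose in ILC3 (median 4.16). These medians are the same when genes without a count in a group are set to their bound. The part of these cells in the segment counts was not tested.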

How the data were processed

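The values were whole-number counts per gene, deposited by the authors without normalization. CASAVA 1.8.2, STAR 2.3.0 and the build mm10 were used per the submitters' processing notes. Which counter, annotation and strand setting made the table is not given in the sources used here. Libraries were made with a SMARTer low-input kit, per the labels' protocols. Symbols came from the RefSeq annotation of GRCm38, which matched 25275 of 27179 gene numbers, and all 129 members matched GENCODE M21.

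The members and lists were chosen with earlier results of these data known. Counts were fitted with edgeR 4.0.16 (R 4.3.3): filterByExpr by group, TMM, quasi-likelihood F test, 3 ILC3 against 2 CD4 T libraries, Benjamini-Hochberg over 12747 genes, called at an adjusted p under 0.05. The sign is ILC3 minus CD4 T. For "at least" folds, a group without counts was set to 3 counts. Intervals are exact (Clopper-Pearson, scipy 1.17.1) and cover counting error only. Identities came from Biopython 1.88 alignments. On simulated counts for 12747 genes, 100% of log2 changes of 4 and 90% of those of 2 were called, and 0.0638% of unchanged genes. The simulated spread between libraries was set below the common dispersion of 0.5295 fitted to these data, and only genes with higher counts were changed. These rates check the code and do not give the power for the members.

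The labels tie no library to one of the mice, so p-values reflect only how the libraries spread, in part perhaps technically. No 2 libraries of a group agreed within sampling noise. Named members are all constant genes, per locus and segment type the 3 with the highest mean CPM in each group, and called members. Others are named after their values were seen. For the other lists the rule takes up to 4 called genes with the smallest p and, for marker lists, the highest gene of each group. Not every gene it takes is reported here. Cd3d, Cd3e, Cd3g, Cd247, Rag1, Rag2, Cd163l1, Sox13, 5830411N06Rik, Il17a and Pax5 fall outside it and were chosen after their values were seen. Alternatives were DESeq2 1.42.0, limma-voom with limma 3.58.1, other scalings and filters, a replicate block and leaving out each library.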

Additional observations from a re-analysis of the deposited data

How the results depend on the processing

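The 7 members called higher and the 2 called lower in ILC3 were called under the DESeq2 Wald test, limma-voom, scaling by library size alone, by upper quartiles or by DESeq2 factors, receptor genes left out of library sizes, no filter and a 1 CPM filter. More members passed under some of these: 13 higher and 8 lower with no filter, 16 and 12 with the DESeq2 Wald test, 13 and 6 with limma-voom, and 4 lower with library size alone, which moved the median log2 fold change of all genes from -0.10 to -0.59. With the replicate block 5 were higher and 0 lower, and Trdj2, Trbj1-1, Trac and Trav3-3 lost their calls, the only 4 named members whose call the block changed. Libraries with the same replicate number showed little correlation in their deviations from group means (-0.0472 and -0.0443, 2 shared numbers). The deviations of the 2 CD4 T libraries mirror each other, so this check cannot exclude pairing by mouse. Leaving out 1 library gave 4 to 20 members higher and 0 to 2 lower. The lower calls were lost without any ILC3 replicate, and the 20 came without CD4 T replicate 2. The calls of Trgv5, Trdv4, Trgv6 and Trdc held under every alternative run. The cause of these changes was not tested. Signs turned for 6 named members, none of them called with its sign turned. Trbc2 went from 0.47 to -0.015 with library size alone. Leaving out 1 library gave log2 fold changes of -0.16 to 1.65 for Trbc2, -0.43 to 7.78 for Trbd2 and -0.020 to 4.01 for Trbj2-7, lowest without CD4 T replicate 1 and highest without CD4 T replicate 2. It gave -2.23 to 0.51 for Trbv12-2, -3.46 to 1.53 for Trbv13-2 and -5.47 to 6.99 for Trbv3, positive only without CD4 T replicate 2, where Trbv3 had no CD4 T count left.

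A minimum of 1 count gave 171 members and one of 50 counts 65. With receptor genes left out of the total, mean summed levels in ILC3 moved by more than 1 SD for alpha J (1.15 CPM), gamma J (40.9 CPM) and gamma C (646 CPM) from 0.920, 32.3 and 514 CPM. In ILC3 the mean number of alpha V segments with 10 or more counts was 2.33 against 8.33 with any count. After thinning to the smallest V total, the ILC3 means were 1.21 delta and 4.54 gamma V segments against 3.33 and 6.00. CD4 T replicate 1, with 3 delta V and 48 gamma V counts, set those totals and limits what can be read from its shares.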
